A study of Mus musculus with 2 samples.

Results

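Atoh1, Barhl1, Neurod1, Neurod2, Nhlh1 and Nhlh2 are the transcription factor genes that follow one another as a cerebellar granule neuron is made. They were found by symbol and make up 6 of the 32285 genes in each matrix, and each symbol had 1 row. Their unique molecular identifiers (UMIs, single captured transcripts) were counted in nuclei of mouse cerebellum at postnatal day 1. The study asked what the loss of Tox3, an HMG-box transcription regulator, does to the cerebellum. The control library came from Cre-negative littermates, labelled Tox3f/f in one field and Tox3f/f or Tox3f/+ in another, and the other library from Nestin-cre;Tox3f/f mice, labelled cKO. Both libraries therefore carried floxed Tox3 alleles, and the Nestin-cre transgene, active in neural precursors, was in 1 library only, so Cre itself and the deletion cannot be told apart. Each library pooled 12 cerebella and each group had 1 library, so no test between groups was possible, and all intervals below are 95% intervals that cover counting error only.

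Atoh1 is a basic helix-loop-helix (bHLH) factor of the rhombic lip and of dividing granule neuron progenitors, and without it granule neurons are not made. Barhl1 is a homeobox gene that is a known target of Atoh1, and Nhlh1 and Nhlh2 are bHLH genes switched on as neural precursors leave the cell cycle. Neurod1 drives the differentiation of granule cells and holds Atoh1 down, and Neurod2 acts in neurons that are maturing. The bHLH factors bind DNA in pairs with E proteins at a short site called the E-box, and Id proteins block that pairing.

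After filtering there were 4667 control nuclei and 6555 nuclei of the cKO-labelled library, with medians of 3978 and 4025 UMIs. Tox3 was not lower in the cKO-labelled library: it had 2127 control UMIs and 3571 UMIs in the other library, a ratio of 1.14 (1.08 to 1.2). Its ratio was 2.14 (1.83 to 2.5) in GNP-like and 1.71 (1.44 to 2.04) in GN-like nuclei, the progenitor and neuron classes defined below. The sources used here do not place the floxed part in the counted transcript, so the label was not checked by these UMIs. By RT-qPCR the study reported that Tox3 was almost fully deleted in mutant cerebella of this age. The libraries shared 9 barcodes. Low-depth clusters that stayed unnamed held 21.8% of control nuclei and 10.7% of the others, with medians of 619.5 and 575.5 UMIs. Free RNA was not removed. In microglia-like nuclei, which should lack all 6 genes, Barhl1 stood at 40.5 UMIs per 1000000 UMIs of the class (CPM) in control, from 7 UMIs, and at 2.30 CPM in the cKO-labelled library, from 1 UMI.

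Nuclei were clustered without the 6 genes, and clusters took a name ending in -like from marker lists. The granule lineage comprised 2 clusters of granule neuron progenitors (GNP-like) and 3 of granule neurons (GN-like). GNP-like nuclei numbered 519 (11.1%) in control and 118 (1.80%) in the cKO-labelled library, and GN-like nuclei 1162 and 1491. One GNP-like cluster was mitotic, led by Neil3, Top2a and Kif11. The other, called Gli2-led below, had Gli2, a mediator of Hedgehog signalling, as its first leading gene. Gli2 was also among the leading genes of the mitotic cluster, so the name does not set the 2 clusters apart. A cluster of 353 and 406 nuclei had 6 granule neuron markers but also Slc17a6, a marker of glutamatergic nuclear neurons, among its leading genes, and it stayed unnamed.

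On the GRCm38 assembly the genes were spread over 5 chromosomes. Atoh1 (ENSMUSG00000073043) is a single exon at chr6:64729125-64731245 on the plus strand. Nhlh1 (ENSMUSG00000051251) lies at chr1:172052292-172057573, and Neurod2 (ENSMUSG00000038255) at chr11:98325415-98329648, each with 2 exons and both on the minus strand. Nhlh2 (ENSMUSG00000048540) lies at chr3:102010076-102015492 on the plus strand, and Barhl1 (ENSMUSG00000026805) at chr2:28907679-28916668 on the minus strand. Neurod1 (ENSMUSG00000034701), at chr2:79452521-79456751 on the minus strand, is contained whole in Cerkl, a gene of the same strand, and 201 of its 2729 exon bases are also Cerkl exon. Reads there cannot be given to one gene or the other.

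The 250 bases before the RefSeq starts (build GRCm38.p6, 5′ to 3′ in the direction of transcription) are shown for Atoh1, Barhl1 and Nhlh1, because these 3 genes were at least 2-fold lower over all nuclei of the cKO-labelled library. Capitals mark E-boxes, searched as CANNTG, which reads alike on both strands. The windows are chr6:64728875-64729124 for Atoh1, chr2:28916669-28916918 for Barhl1 and chr1:172057597-172057846 for Nhlh1.
Atoh1: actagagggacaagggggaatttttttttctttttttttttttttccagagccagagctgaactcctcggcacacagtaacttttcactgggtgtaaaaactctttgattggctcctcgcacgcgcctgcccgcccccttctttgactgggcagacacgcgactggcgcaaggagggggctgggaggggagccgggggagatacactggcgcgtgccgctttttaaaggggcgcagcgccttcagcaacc
Barhl1: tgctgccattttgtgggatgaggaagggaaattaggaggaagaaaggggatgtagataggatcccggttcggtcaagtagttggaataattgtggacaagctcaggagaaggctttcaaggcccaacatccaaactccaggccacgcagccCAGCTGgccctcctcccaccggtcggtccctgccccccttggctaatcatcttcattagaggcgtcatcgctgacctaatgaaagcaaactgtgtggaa
Nhlh1: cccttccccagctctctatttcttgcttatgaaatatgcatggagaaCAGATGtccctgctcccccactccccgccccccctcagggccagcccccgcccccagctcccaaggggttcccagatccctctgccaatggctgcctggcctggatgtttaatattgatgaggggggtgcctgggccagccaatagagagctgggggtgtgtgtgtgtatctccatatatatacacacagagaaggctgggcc
The Barhl1 window held CAGCTG, starting 99 bases before the start. The Nhlh1 window held CAGATG 203 bases before its start. The Atoh1 window held no E-box. The study described E-boxes of Atoh1 in a distal enhancer downstream of the gene, which this window does not cover. A second RefSeq start of Barhl1 also had 1 CAGCTG, the Neurod1 window 1 CATATG, the Nhlh2 window 2 E-boxes and the Neurod2 window 3. Of all 32851 RefSeq windows of this length, 66.2% held CANNTG, 13.0% CAGCTG, 14.4% CAGATG (searched on both strands) and 3.46% CATATG.

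All 6 genes had a lower level in the cKO-labelled library over all nuclei. Atoh1 had 42 control UMIs, in 41 nuclei, and 3 in the other library. Its level was 2.05 and 0.0994 CPM, a ratio (labelled cKO over control) of 0.0485 (0.00962 to 0.152). Barhl1 had 745 and 296 UMIs, 36.4 and 9.81 CPM, with a ratio of 0.270 (0.235 to 0.309). Nhlh1 had 119 and 56 UMIs, with a ratio of 0.320 (0.228 to 0.443). These 3 genes were at least 2-fold lower, against 2.48% of the 20214 genes with at least 20 UMIs. The other genes were lower by less. Neurod1 had 1257 and 1119 UMIs and a ratio of 0.605 (0.557 to 0.656). Nhlh2 had 508 and 531 UMIs and a ratio of 0.710 (0.628 to 0.803), and Neurod2 had 1431 and 1680 UMIs and a ratio of 0.797 (0.743 to 0.856). None of the 6 was at least 2-fold higher, where 2.08% of all genes were. The low-depth unnamed clusters, which held more of the control nuclei, had high levels of these genes, with 231 and 134 CPM of Neurod1, 216 and 149 CPM of Neurod2 and 79.3 and 28.1 CPM of Barhl1, and their part in the whole-library ratios was not tested beyond leaving out nuclei under 1000 UMIs, which gave a Barhl1 ratio of 0.273.

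The whole-library level mixes the level inside each class with the share of UMIs that each class holds. Control class levels were therefore weighted by the class shares of the cKO-labelled library, which gives the level that the shares alone would set. Each unnamed cluster counted as a class here. Of the low-depth ones, 1 had 987 control nuclei and 58 others, and the next 29 and 644. The control level of the latter came from 7 Neurod1 and 2 Barhl1 UMIs. The part of these clusters in the set levels was not tested. For Neurod2 this gave 60.2 CPM, against 69.8 measured in control and 55.7 measured in the cKO-labelled library. For Neurod1 it gave 45.0 CPM between 61.3 and 37.1, and for Nhlh2 21.7 CPM between 24.8 and 17.6. The measured levels of these 3 genes were 0.925, 0.824 and 0.812 of those set by the shares. Barhl1 was set at 21.6 CPM by the shares and measured at 9.81, which is 0.453 of it. Nhlh1 was measured at 0.546 and Atoh1 at 0.0893 of the level set by the shares. Atoh1 had the lowest of these values, and Barhl1 and Nhlh1 were next. No interval was computed for these values, so the order of Barhl1 and Nhlh1 was not tested.

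**Figure D1:**
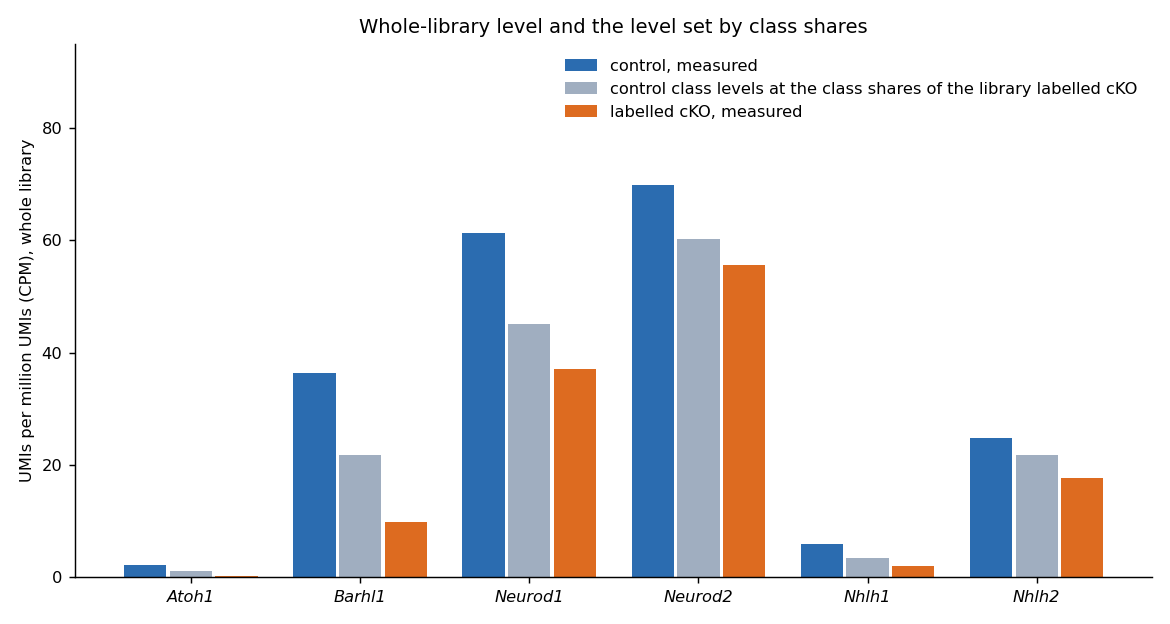
Bars show the level of each gene over all nuclei of a library, in CPM, for control, for control class levels weighted with the class shares of the cKO-labelled library, and for the cKO-labelled library. Unnamed clusters, low-depth ones included, count as classes in the weighting. The grey bar of Neurod2 (60.2 CPM) lies near the measured 55.7, while that of Barhl1 (21.6 CPM) is above the measured 9.81.

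Inside the granule lineage the 6 genes did not move alike. Atoh1 and Barhl1 were at least 2-fold lower, with 6.29% of 15786 genes past that fold, and none of the 6 was at least 2-fold higher (1.49% of genes were). Neurod2 had a level of 97.4 CPM in control and 126 CPM in the cKO-labelled library, a ratio of 1.30 (1.18 to 1.43), and Neurod1 93.1 and 96.1 CPM, a ratio of 1.03 (0.929 to 1.15). Nhlh1 had a ratio of 0.502 (0.318 to 0.775) and Nhlh2 of 0.761 (0.612 to 0.944). The median log2 ratio was -0.69 over the 6 genes and -0.09 over all genes tested. A lineage ratio mixes GNP-like and GN-like nuclei, whose shares differed between the libraries, so the classes are given apart below.

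**Figure D2:**
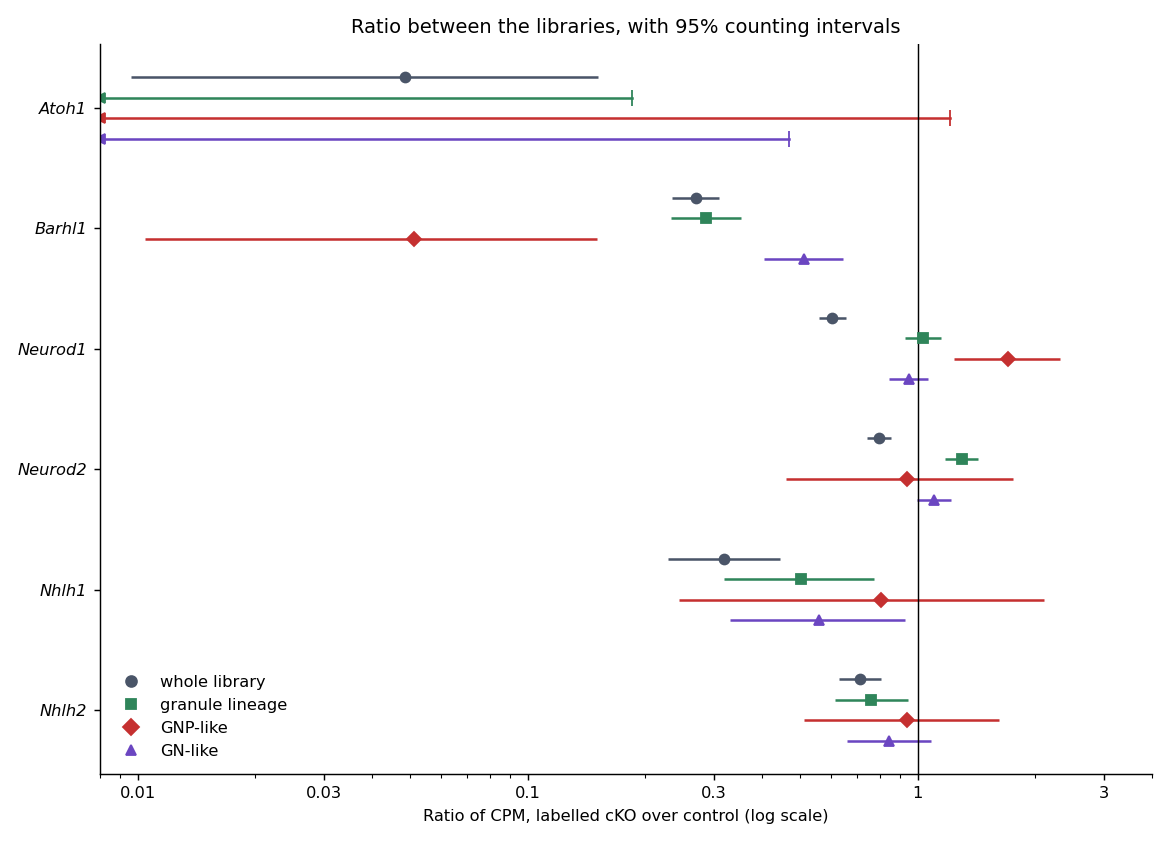
Points are ratios of CPM, the cKO-labelled library over control, on a log axis for all nuclei, the granule lineage, GNP-like and GN-like nuclei, with 95% counting intervals. Arrows at the left edge mark 0 UMIs in the cKO-labelled library, with the upper limit as a tick. Barhl1 in GNP-like nuclei (0.0511) and Neurod1 in the same nuclei (1.71) lie on opposite sides of 1.

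Atoh1 was seldom seen in nuclei at all. GNP-like nuclei held 16 control UMIs, at 7.74 CPM (4.42 to 12.6), each in another nucleus, so that 3.08% (1.77 to 4.96%) of nuclei had a UMI. None of the 118 GNP-like nuclei of the cKO-labelled library had one, which allows a share of up to 2.54% (3 counts; the exact upper limit is 3.08%, equal to the control share), and the upper limit of the ratio was 1.21, so within this class a difference was not detectable at this depth. The control GN-like nuclei held 9 UMIs, at 1.52 CPM, and the 1491 GN-like nuclei of the cKO-labelled library held none. Over the whole granule lineage 25 UMIs stood against 0, at least 7.15-fold lower against a floor of 3 counts in the cKO-labelled library, and at least 5.39-fold lower by the exact interval of the ratio. Outside the lineage, named classes held 8 control UMIs and 3 of the cKO-labelled library, 2 of them in Bergmann glia-like nuclei and 1 in GABAergic interneuron-like nuclei. In control microglia-like nuclei 1 UMI gave 5.79 CPM, so levels from 1 or 2 UMIs are not apart from background.

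In control the highest Barhl1 level was 133 CPM (118 to 150) in GNP-like nuclei, from 275 UMIs, and GN-like nuclei had 35.8 CPM (31.1 to 40.9). These intervals did not overlap, and those of GN-like and microglia-like nuclei (40.5 CPM, 16.3 to 83.5) did. In the cKO-labelled library, GNP-like nuclei held 3 Barhl1 UMIs, 6.79 CPM (1.4 to 19.9), a level 19.6-fold lower (6.63 to 95.5). A Barhl1 UMI was seen in 38.9% of GNP-like nuclei from control and in 1.69% from the cKO-labelled library, or 12.9% and 0.780% when each was thinned to 1000 UMIs, and no nucleus of this class was left out by that. The thinned share was 1.80% and 0.214% in microglia-like nuclei, whose median depths were 2923 and 2541 UMIs against 3715 and 3487.5 in GNP-like nuclei.

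The difference in Barhl1 was present in both GNP-like clusters. The mitotic cluster went from 132 to 2 UMIs, 109 and 6.23 CPM, and the Gli2-led cluster from 143 to 1 UMI, 168 and 8.28 CPM. The GN-like clusters differed less. The cluster with Reln and Nrn1 among its leading genes, which lay next to the progenitors, had 67.4 and 25.1 CPM (ratio 0.372, 0.203 to 0.649). It also had 4 markers of the progenitor list, with a mean log2 fold of 1.16 against 1.64 for granule neuron markers. The cluster led by Cadps2 and Reln had 47.9 and 21.8 CPM (ratio 0.454, 0.287 to 0.705), and that led by Slit3 and Svep1 had 23.9 and 16.0 CPM (ratio 0.669, 0.481 to 0.927). The intervals of these 3 clusters overlapped, and the difference between them was not tested.

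Outside the granule lineage Barhl1 was not lower in every group. A glutamatergic nuclear neuron-like cluster led by Meis2, Zfhx3 and Tfap2d had 10 and 24 UMIs, 66.8 and 73.4 CPM, a ratio of 1.1 (0.507 to 2.58). Its name was a near tie. The mean log2 fold was 3.17 for glutamatergic and 3.15 for GABAergic nuclear neuron markers, and Zfhx3 is one of the latter. It also passed the rule for GABAergic interneurons. The other glutamatergic nuclear neuron-like cluster had 6.75 and 2.40 CPM. Purkinje cell-like nuclei had 8.49 and 2.66 CPM and GABAergic interneuron-like nuclei 9.66 and 1.76 CPM. The levels of the last 2 classes moved with the amount of Barhl1 in the library as a whole, and the part of free RNA in them was not tested.

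Neurod1 was higher, not lower, in GNP-like nuclei of the cKO-labelled library. In control its level was 98.7 CPM (90.8 to 107) in GN-like and 76.9 CPM (65.4 to 89.8) in GNP-like nuclei, with intervals that did not overlap. In the cKO-labelled library, GNP-like nuclei had the higher value, 131 CPM (99.7 to 170) from 58 UMIs, against 93.7 CPM (86.3 to 101) in GN-like nuclei, and these intervals overlapped. The ratio between libraries was 1.71 (1.24 to 2.32) in GNP-like and 0.949 (0.846 to 1.07) in GN-like nuclei. Of the 5 genes with at least 20 UMIs in GNP-like nuclei, Barhl1 alone was at least 2-fold lower (11.3% of 11189 genes were) and none at least 2-fold higher (4.21%). In GN-like nuclei none of the 5 was past that fold in either direction, where 2.14% of 15029 genes were lower and 1.54% higher, and Barhl1 stood just inside it with a ratio of 0.510.

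The higher Neurod1 level was found in both GNP-like clusters. The mitotic cluster had 105 and 42 UMIs, 86.4 and 131 CPM, a ratio of 1.52 (1.03 to 2.19). The Gli2-led cluster had 54 and 16 UMIs, 63.4 and 133 CPM, a ratio of 2.09 (1.12 to 3.71), with only 42 nuclei in the cKO-labelled library. Nuclei with a Neurod1 UMI made up 23.5% (19.9 to 27.4%) and 35.6% (27 to 44.9%) of GNP-like nuclei, and 6.93% and 11.8% after thinning. Microglia-like nuclei had 5.51% and 1.91% after thinning, from 6 and 8 UMIs, and the part of free RNA was not tested. Cerkl, the gene that contains Neurod1, also had the higher level in GNP-like nuclei of the cKO-labelled library, with 38.2 and 81.5 CPM and a ratio of 2.13 (1.4 to 3.20). Its part in the Neurod1 value was not tested. The unnamed cluster with granule neuron markers had 78.2 and 56.7 CPM, a ratio of 0.726 (0.553 to 0.951).

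Neurod2 had its highest level in GN-like nuclei of both libraries, 121 CPM (113 to 130) and 133 CPM (124 to 143), a ratio of 1.1 (0.994 to 1.22). In GNP-like nuclei it stood at 29.0 and 27.2 CPM, from 60 and 12 UMIs, with a ratio of 0.936 (0.458 to 1.76), and the control value was no higher than the 34.7 CPM of microglia-like nuclei (13.8 CPM in the other library). It was not confined to the granule lineage. GABAergic interneuron-like nuclei had 72.3 and 67.1 CPM, with a ratio of 0.928 (0.780 to 1.11). Purkinje cell-like nuclei, which were the deepest of these classes, had 16.0 and 7.64 CPM. The interneuron-like class held 22.6% of all Neurod2 UMIs of the cKO-labelled library and 14.1% of those of control. This class made up 18.5% of the nuclei of the cKO-labelled library and 10.9% of control nuclei.

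Nhlh1 and Nhlh2, which are close relatives, had their highest levels in different classes. Nhlh1 was rare, and of the classes GNP-like nuclei had its highest level, 14 CPM (9.40 to 20.1) in control and 11.3 CPM (3.68 to 26.4) in the cKO-labelled library, from 29 and 5 UMIs. In GN-like nuclei it had 43 and 26 UMIs, 7.25 and 4.05 CPM, a ratio of 0.559 (0.330 to 0.930). The GN-like cluster next to the progenitors had 20.5 and 19.2 CPM, and the cluster led by Cadps2 13.4 and 6.33 CPM, with a ratio of 0.472 (0.188 to 1.1). Of the classes, GABAergic interneuron-like nuclei had the highest Nhlh2 level, at 56.2 CPM (47.7 to 65.7) and 49.2 CPM (43.6 to 55.4). GNP-like nuclei followed with 38.7 CPM (30.7 to 48.2) and 36.2 CPM (20.7 to 58.8), whose intervals overlapped those of the interneuron-like class, and GN-like nuclei had 23.4 and 19.8 CPM, with ratios of 0.936 (0.511 to 1.61) and 0.844 (0.658 to 1.08). Microglia-like nuclei had 23.2 and 2.30 CPM of Nhlh2, from 4 UMIs and 1 UMI, which in control is the level of GN-like nuclei. Within the lineage the GN-like cluster next to the progenitors had 49.3 and 60.4 CPM of Nhlh2 (43.4 to 82.0 for the latter), so by cluster the level there was within counting error of the interneuron-like class. Interneuron-like nuclei held 30.9% of the Nhlh2 UMIs of control and 52.5% of those of the cKO-labelled library. The class itself made up 10.9% and 18.5% of nuclei, and the Nhlh2 ratio inside it was 0.876 (0.718 to 1.07).

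The interneuron-like clusters differed in both Nhlh2 and Neurod2. In control, the cluster led by Pax2, Gad1 and Slc6a5 had 93.5 CPM of Nhlh2 and 112 CPM of Neurod2. The one that also had 3 markers of GABAergic progenitors, and 6 of the granule neuron progenitor list, had 70.6 and 90.5 CPM. In the remaining interneuron-like clusters Nhlh2 was between 31.3 and 39.8 CPM and Neurod2 between 46.2 and 59.2 CPM. In the cKO-labelled library the order was another: the cluster with progenitor markers had 95.7 CPM of Nhlh2 (75.9 to 119) and that led by Pax2, Gad1 and Slc6a5 72.9 CPM (59.6 to 88.1), with overlapping intervals, and their Neurod2 levels were 67.0 and 102 CPM. The remaining clusters had 18.6 to 32.8 CPM of Nhlh2 and 41.7 to 70.2 CPM of Neurod2. Pax2 marks immature inhibitory interneurons of the cerebellum.

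**Figure D3:**
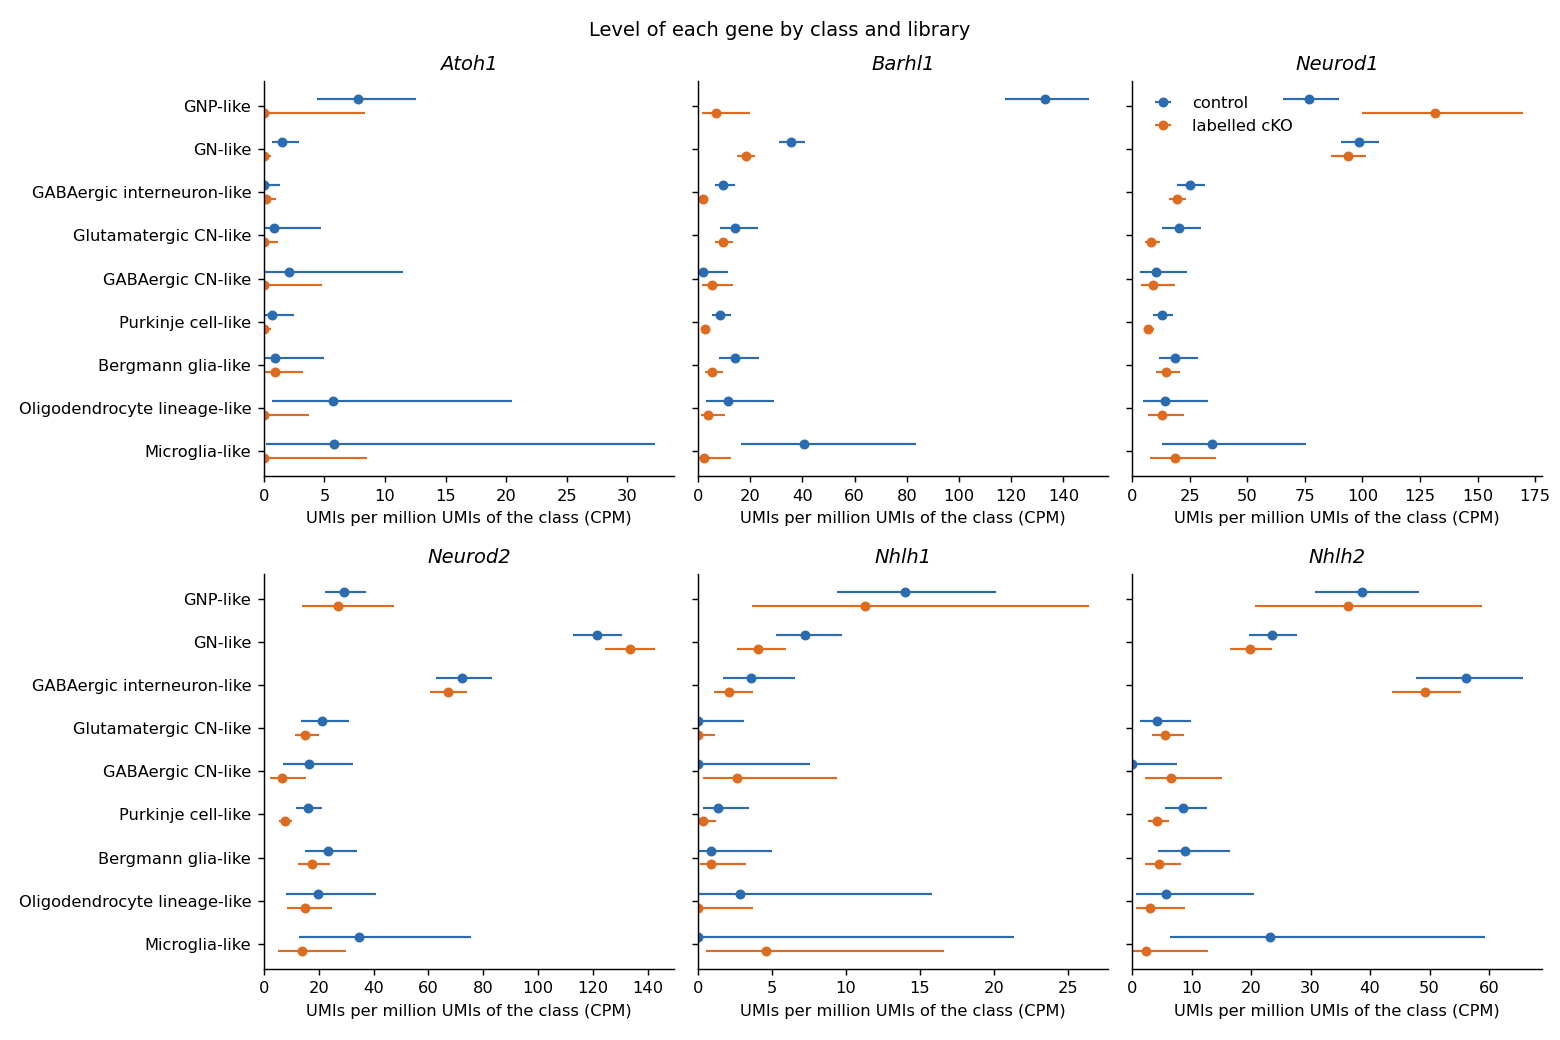
Each panel is 1 gene, with its level in CPM of the class on the x axis, for 9 classes in control and in the cKO-labelled library, and bars are 95% counting intervals. Barhl1 in GNP-like nuclei is at 133 and 6.79 CPM, Neurod1 in the same class at 76.9 and 131 CPM, and of these classes GABAergic interneuron-like nuclei have the highest Nhlh2 level.

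The 1681 control nuclei and 1609 others of the granule lineage were ordered by diffusion pseudotime, on components made without the 6 genes, and cut into 10 bins of equal size. Bin 1 was 99.7% mitotic GNP-like nuclei with 607 CPM of Mki67, a marker of dividing cells. Bin 3 was almost all of the first GN-like cluster, where Cntn2, an adhesion gene of granule cells that have just left the cycle, was at 371 CPM, against 77.8 CPM in bin 2 and 385 CPM in bin 4. Bins 7 to 10 held only the cluster led by Slit3. Control nuclei numbered 259 and 273 in bins 1 and 2, and nuclei of the cKO-labelled library 70 and 56.

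In control the genes had their highest levels in different bins of this order, though not all of them apart from one another. Atoh1 and Barhl1 were highest in bin 2, at 11 CPM (5.26 to 20.2) and 170 CPM (144 to 199). Neurod1 went from 61.5 CPM in bin 2 to 215 CPM (179 to 257) in bin 3, and Nhlh1 was also highest in bin 3 at 22.7 CPM (12.1 to 38.9). Nhlh2 was highest in bin 4 at 55.2 CPM, within counting error of the 52.5 CPM of bin 3 and of the 46.4 CPM (35.0 to 60.4) of bin 1. Nhlh1 too was within counting error of its highest level in bin 1, at 16.0 CPM (9.66 to 25.1), and Atoh1 at 5.91 CPM (2.38 to 12.2). Neurod2 went from 27.9 CPM in bin 1 to 151 CPM in bin 6 and lay between 118 and 145 CPM after it. The mean position of a gene's UMIs, as a percentile of the order, was 22.6 ± 4.5 (SE over 25 UMIs) for Atoh1, 28.5 ± 1.2 for Barhl1, 28.3 ± 2.6 for Nhlh1, 32.8 ± 1.7 for Nhlh2, 44.1 ± 1.1 for Neurod1 and 63.3 ± 0.93 for Neurod2. These SEs treat UMIs as independent and cover counting error only. The order spans both libraries, and all control nuclei together had a mean position of 42.9, so Neurod1 lay near the average nucleus. Positions were not corrected for depth. In control the cluster led by Slit3 had a median of 5663 UMIs, against 4231.5 in the mitotic and 3237 in the Gli2-led cluster.

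In the cKO-labelled library Barhl1 was low in the early bins, and Neurod2 followed the control. Atoh1 was at 0 in every bin, with upper limits of 12.2 and 23.7 CPM in bins 1 and 2. Barhl1 had 6.63 CPM (0.803 to 23.9) in bin 1 and 12.8 CPM (1.55 to 46.4) in bin 2, against 104 and 170 CPM in control, then 29.3 CPM in bin 3 and 11.6 to 22.7 CPM in bins 4 to 10, where control had 17.9 to 52.2 CPM. Neurod1 was already at 133 CPM (94.7 to 181) in bin 1 and 128 CPM (78.4 to 198) in bin 2, against 89.5 CPM (73.3 to 108) and 61.5 CPM (46.4 to 79.8), so that its step from bin 2 to bin 3 was 128 to 169 CPM in place of 61.5 to 215. In bin 1 the intervals of the libraries overlapped, and in bin 2 they overlapped in a narrow range. Nhlh2 was highest in bin 3 at 73.2 CPM (51.0 to 102), and Nhlh1 in bin 3 at 23.0 CPM. Neurod2 went from 29.8 CPM in bin 1 to 162 CPM in bin 7, with intervals that overlapped those of control in all 10 bins.

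**Figure D4:**
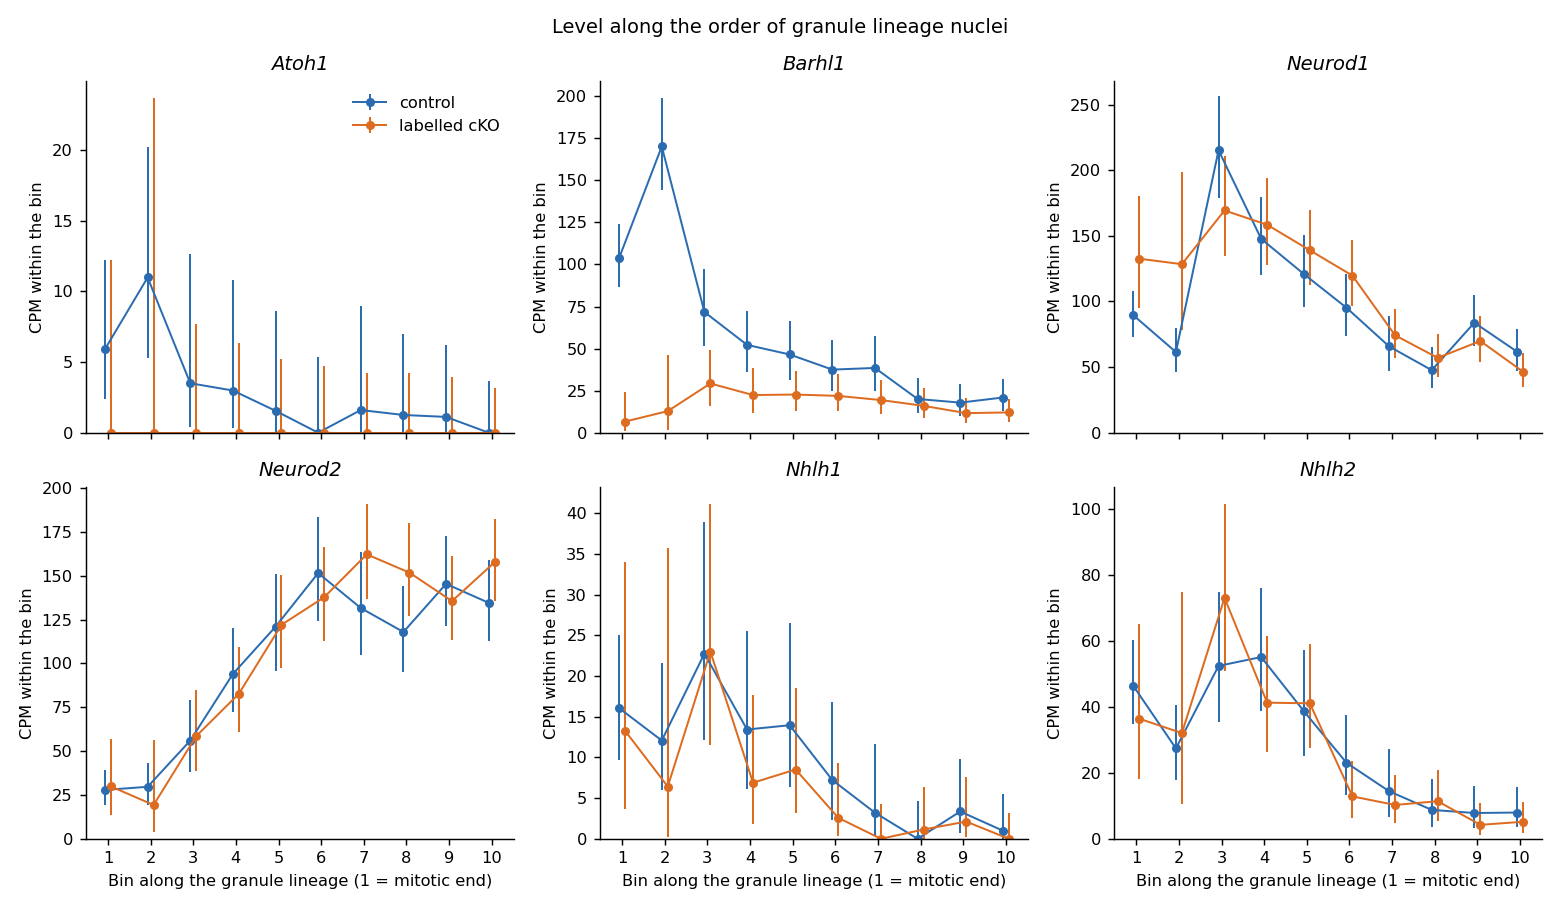
Each panel shows the level of 1 gene (CPM within the bin) in 10 bins of equal nuclei number along the granule lineage, from the mitotic end at bin 1, for control and for the cKO-labelled library, with 95% counting intervals. The Barhl1 peak of 170 CPM in control bin 2 has no counterpart in the cKO-labelled library (12.8 CPM), and the Neurod2 curves run together.

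Single nuclei that held 2 of the genes together were counted as a description, since depth differs between nuclei. Of the 25 control lineage nuclei with an Atoh1 UMI, 14 (56.0%, 34.9 to 75.6%) also had a Barhl1 UMI, against 22.4% of the other lineage nuclei, at median depths of 4233 and 4367.5 UMIs. Neurod1 was in 6 of these 25 nuclei (24.0%, 9.36 to 45.1%), against 32.1% of the others, and Mki67 in 11 (44.0%, 24.4 to 65.1%), against 22.0%. Of the 25 nuclei 16 were GNP-like, so this comparison mixes Atoh1 with class. Among control GNP-like nuclei, Mki67 was in 8 of the 16 with Atoh1 (24.7 to 75.3%) and in 50.5% of the others. Their median depths were 4283 and 3688 UMIs. Barhl1 was in 11 of the 16 (68.8%, 41.3 to 89.0%), against 38.0%, and Neurod1 in 3, against 23.7%. Within GNP-like nuclei of control, Mki67 was seen in 80 of 122 nuclei with Neurod1 (65.6%, 56.4 to 73.9%) and in 45.8% of those without, at medians of 4249.5 and 3529 UMIs. In GNP-like nuclei of the cKO-labelled library it was seen in 29 of 42 (69.0%, 52.9 to 82.4%) and in 51.3%. Of control GNP-like nuclei with Neurod1, 52 (42.6%) had Barhl1 too, against 37.8% of those without Neurod1. Of the 42 in the cKO-labelled library none had (upper limit 8.41%), against 2.63% of those without. Only 2 of the 118 GNP-like nuclei of that library had a Barhl1 UMI at all, so this count cannot show whether the 2 genes are found together less often.

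The other genes of this program were taken from 5 lists, with the 6 genes left out, and are given for the granule lineage. Of 7 E protein and Id genes none was past 2-fold. Id4, an inhibitor of bHLH factors, had a ratio of 1.56 (1.11 to 2.21) and Id3 of 1.37 (0.994 to 1.89), and the E protein genes Tcf4 and Tcf3 had ratios of 0.844 (0.822 to 0.866) and 0.882 (0.739 to 1.05). Of the related bHLH and BarH genes 4 of 13 had at least 20 UMIs over both libraries, and none was past 2-fold. Barhl2, the paralog of Barhl1, had 86 and 105 UMIs and a ratio of 1.42 (1.06 to 1.92), so the 2 BarH genes lay on opposite sides of 1. Neurod6 had a ratio of 0.933 and Bhlhe22 of 0.992, and both intervals held 1.

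Over the granule lineage, progenitor genes of the external germinal layer were the list that was lower, as Atoh1 and Barhl1 were. Several of them, Fgfr4, Gli2, Boc and Mycn included, were also markers by which the GNP-like clusters were named. They were not kept out of the clustering features, so their values are not independent of how the classes were drawn. Of 12 genes 7 were at least 2-fold lower in the granule lineage and none higher, against 6.29% and 1.49% of all genes, with a median log2 ratio of -1.11. Fgfr4, a growth factor receptor gene, had 95 and 2 UMIs and a ratio of 0.0245 (0.00293 to 0.0912). Gli2 had a ratio of 0.256, Ccnd2, a cyclin gene, of 0.396, and Boc, a Hedgehog co-receptor gene, of 0.406. Within GNP-like nuclei, where the class share no longer counts, 4 of 10 were at least 2-fold lower (11.3% of all genes were): Fgfr4 (84 and 0 UMIs), Rab15 (72 and 2 UMIs), Boc (ratio 0.366) and Mycn (ratio 0.482). Gli2 was level there at 1.00 (0.880 to 1.14), and Ptch1, a Hedgehog target gene, had a ratio of 1.58 (1.4 to 1.78). The median log2 ratio of the 10 genes in this class was -0.06, against -0.07 over all genes. Of the 10, 4 had an interval below 1 and 2 above it, so as a list they were not lower inside the class.

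Of 16 differentiating granule neuron genes 1 was at least 2-fold higher in the granule lineage (1.49% of all genes were), Gabra6, a receptor subunit of mature granule cells, with 4 and 22 UMIs. Plxna2 had a ratio of 1.77 (1.63 to 1.91), Etv1 of 1.41 (1.25 to 1.60) and Nfia of 0.649 (0.633 to 0.665). Cntn2, Etv1, Cadps2 and Gabra6, and Pax6 and Zic1 of the identity genes below, were also markers by which granule lineage clusters were named. Their values too are not independent of how the classes were drawn. In GNP-like nuclei 15 had enough UMIs, with a median log2 ratio of 0.39 against -0.07 over all genes. There 9 had an interval above 1 and 1 below it. Past 2-fold, where 4.21% of all genes were higher and 11.3% lower, were 3 genes, Cntn2 at 3.57 (2.62 to 4.85), Plxna2 at 3.86 (2.57 to 5.78) and, in the other direction, Cadps2 at 0.296 (0.257 to 0.340). Of 7 granule lineage identity genes none was past 2-fold in the lineage. Zic1 had a ratio of 1.26 (1.21 to 1.31), Pax6 of 0.860 (0.821 to 0.901), Meis2 of 1.08 (0.814 to 1.43) and Lmx1a of 0.625 (0.310 to 1.21). In GNP-like nuclei Meis2 was past 2-fold, with 17 and 14 UMIs and a ratio of 3.86 (1.76 to 8.31).

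The genes most like each member were found over 22 profiles, 1 for each class and library with at least 30 nuclei, by Pearson's correlation of log2(CPM + 1) among 10537 genes. Profiles of a library share its free RNA and depth, so this is a description. Barhl1 was most like Nrn1 (r = 0.84), Ntf3 (0.77), Aven (0.77), Atp5g3 (0.75) and Slc17a6 (0.75). Neurod1 was most like Cerkl (0.94), which contains it, then Reln (0.89), Ube2e3 (0.88), Gm37229 (0.86) and Smc3 (0.85), and Ube2e3 lies 531228 bases from it on the same chromosome. Neurod2 was most like Zbtb18 (0.90), Ror1 (0.85), Glce (0.83), A730035I17Rik (0.82) and Ube2e3 (0.82). Nhlh2 was most like Tdp2 (0.81), Podxl (0.79), Gm4793 (0.78), Fam160b1 (0.76) and 5330438D12Rik (0.76). No member was among the 5 genes most like another, and the closest pair of members was Neurod1 and Neurod2 (r = 0.75).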

How the data were processed

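Nuclei from frozen cerebella were profiled by single-nucleus RNA-seq with a kit that reads the 3′ end of transcripts. The deposited values are raw UMI counts per gene and nucleus, made by the authors with Cell Ranger 7.0.1 on mm10 (the submitters' processing notes also name bcl2fastq), with no normalisation. The matrices held 4857 control barcodes (22325208 UMIs) and 6946 of the cKO-labelled library (33726533 UMIs). The study's filters were applied: over 25% mitochondrial UMIs (1 and 5 nuclei) and Scrublet doublets in scanpy 1.11.5, here the top 0.8% per 1000 barcodes (189 and 386 nuclei). SoupX, with which the study removed free RNA, was not run, since empty droplets were not among the data analysed here.

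Libraries were integrated and clustered with Seurat 5.3.0 in R 4.3.3 (3000 variable features, 30 and 20 dimensions, resolution 0.8), with 26 genes, the 6 members among them, kept out of the features. Of 25 clusters 21 were named, from at least 3 markers at least 2-fold over the other clusters and seen in 10% of nuclei. This rule was written with the clusters in view. Low-depth clusters got no name, nor did any whose 10 leading genes held more markers of a different class.

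Levels are sums of UMIs per 1000000 UMIs of a class, with exact Poisson intervals. Ratios have exact conditional binomial intervals and shares Clopper-Pearson intervals, at 95%. They cover counting error only. Shares after thinning are the exact expectation over all draws of 1000 UMIs, leaving out 975 control nuclei and 664 of the cKO-labelled library that were shallower. The order along the lineage is diffusion pseudotime over 30 neighbours, rooted in the cluster with most Top2a, at its nucleus farthest on the first diffusion component. Positions come from GENCODE M21 (GRCm38) and promoter windows from RefSeq. All 6 members matched both. Scripts for ratios and fold counts were tested on simulated data.

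With 1 library per group no test was run. Alternatives were other clustering resolutions, no integration, doublets kept, the members used in clustering, a mitochondrial limit of 5%, thinned or deeper nuclei, other UMI minimums, scalings and pseudocounts. The members, gene lists and part of the methods were chosen with earlier results of these data known. Up to 4 genes per list were named by the size of their log2 ratio in the granule lineage, plus the 5 genes most like each member of at least 200 UMIs. Rab15, Mycn, Ptch1, Cntn2 and Cadps2 were named after their values were seen. A cell class and a gene of the lists are not reported here.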

Additional observations from a re-analysis of the deposited data

Results flagged for a closer look

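Neurod1 differed in direction between classes. Its ratio, the cKO-labelled library over control, was 1.71 in GNP-like nuclei, with an interval above 1, and 0.540 in Purkinje cell-like and 0.412 in glutamatergic nuclear neuron-like nuclei, with intervals below 1. The difference between these classes was not tested. Neurod1 was at 12.9 and 6.97 CPM in Purkinje cell-like nuclei and at 20.2 and 8.33 CPM in the nuclear neuron-like class, and microglia-like nuclei had 34.7 and 18.4 CPM, so the classes in which it was lower had levels no higher than those of microglia-like nuclei.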

How the results depend on the processing

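No paired analysis was possible because each group had 1 library. All alternatives kept the direction of every member ratio whose interval did not hold 1, while of the ratios whose interval held 1, those of Neurod1 (granule lineage, GN-like), Neurod2 (GNP-like), Nhlh1 (GNP-like) and Nhlh2 (GNP-like, GN-like) lay on either side of 1. Barhl1 in GNP-like nuclei had a ratio of 0.157 at resolution 0.4, where the class grew to 756 and 340 nuclei. With doublets kept, GN-like nuclei numbered 666 and 704, and the granule lineage ratio was 1.28 for Neurod1 and 0.965 for Nhlh2. With each nucleus thinned to 1000 UMIs, the whole-library ratio was 0.675 for Neurod1 and 0.879 for Neurod2. With the Purkinje cell-like level subtracted, an alternative chosen after seeing the data, the granule lineage ratio of Neurod2 was 1.46, and Neurod1 in GNP-like nuclei had 1.94, the highest of its 10 alternatives, whose lowest was 1.4. Joining the unnamed granule-like cluster, also chosen after seeing the data, left each ratio inside its interval. Under median-of-ratios scaling the median of all genes shifted by at most 0.09 (log2).

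Counts of genes past 2-fold depended on the minimum of UMIs. With at least 50 UMIs, 254, 622, 522 and 110 genes were lower and 182, 100, 237 and 78 higher in the whole library, granule lineage, GNP-like and GN-like nuclei. With at least 1 UMI these were 2389, 4068, 6511 and 3301 lower and 2645, 2370, 2249 and 2577 higher. Ordering the lineage by its first component moved no mean position beyond its counting error. With a pseudocount of 10 CPM, 2 to 3 of the 5 most like genes of each member were shared. Depth limits Atoh1 and Nhlh1 most, with 45 and 175 UMIs over both libraries.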
